A study of Rattus norvegicus with 16 samples.

Results

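JM6 and E33 are 2 compounds, known here only by these code names, that were given to rats with traumatic brain injury (TBI), and this account compares the hippocampal microRNAs (miRNAs) of the animals that received one with those of the animals that received the other. The arrays were chosen by their labels alone, as the 3 labelled TBI+JM6 and the 2 labelled TBI+E33, which makes 5 of the 16 arrays of the series. Every rat was a male Sprague-Dawley with a lateral fluid percussion injury, a fluid pressure pulse on the exposed dura, and whole hippocampus was taken 24 h later. The 2 sham arrays, from rats handled without the injury and taken at the same time, are used as a reference level. The dose, route and time of dosing of either compound, and the age of the rats, are not given in the sources used here, so the comparison is between the groups as labelled and not at a stated matched dose. The design text describes 3 biological samples for each group, whereas 2 E33 and 2 sham arrays were analysed here, 1 rat to an array. No array of injured rats without a drug lies on the slide that holds these 5 arrays.

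A miRNA is a short RNA that is cut from a hairpin precursor and guides a protein complex to messenger RNAs, mostly through its seed, bases 2 to 8 counted from its 5′ end, after which the messenger is translated less or degraded. miRNAs with the same seed are grouped as a family because they can bind the same sites. In the hippocampus neurons carry miR-124, miR-137 and miR-218, oligodendrocytes miR-219 and miR-338, and the blood cells that enter injured tissue carry miR-223, miR-142, miR-144 and miR-451.

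The mature sequences below are those of some of the miRNAs described in the comparison, 5′ to 3′, with the seed in capitals. They come from RefSeq on GRCr8 and were matched through the array's probe sequence, which succeeded for 206 of the 230 miRNAs tested. The miR-34 family is shown first because its members, with the same seed, had differences of opposite sign, none of them called by limma.

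miR-34a (chr5:165815971-165815992, plus strand): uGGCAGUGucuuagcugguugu
miR-34b (chr8:60306657-60306679, minus strand): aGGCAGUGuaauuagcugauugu
miR-34c (chr8:60306133-60306155, minus strand): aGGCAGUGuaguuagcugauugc

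The let-7 family, with let-7a, let-7e and miR-98, and the miR-7 pair each share a seed, and some of their members separated the groups. let-7a and miR-7a each have a further locus with the same mature sequence.

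let-7a (chr17:16320145-16320166, plus strand): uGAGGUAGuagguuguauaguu
let-7e (chr1:67350243-67350264, plus strand): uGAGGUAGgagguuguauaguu
miR-98 (chrX:24460663-24460684, plus strand): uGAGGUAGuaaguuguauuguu
miR-7a (chr17:6278710-6278732, plus strand): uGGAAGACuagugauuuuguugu
miR-7b (chr9:1167464-1167486, plus strand): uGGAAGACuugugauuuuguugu

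miR-192 and miR-194 had the largest differences of all, and their precursors lie side by side on chromosome 1 although their seeds differ. The miR-194 sequence is also encoded on chromosome 13.

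miR-192 (chr1:212994232-212994252, plus strand): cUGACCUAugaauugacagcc
miR-194 (chr1:212994038-212994059, plus strand): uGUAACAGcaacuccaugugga

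miR-330* and miR-338* were the only others with an unadjusted p under 0.05, and miR-140 and miR-140* are the 2 arms of 1 hairpin, both of which separated the groups. The star marks, in the older nomenclature that the array uses, the arm of the hairpin that was taken to be the less abundant.

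miR-330* (chr1:87961266-87961288, plus strand): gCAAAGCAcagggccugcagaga
miR-338* (chr10:105796381-105796402, minus strand): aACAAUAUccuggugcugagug
miR-140 (chr19:52375314-52375335, plus strand): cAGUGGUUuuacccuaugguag
miR-140* (chr19:52375353-52375373, plus strand): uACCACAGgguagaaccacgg

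Levels below are log2 values of a probe's intensity divided by a 75th percentile of its array. That percentile was taken over the 284 probes detected on each of the 16 arrays. A level of 0 is thus the level of that percentile, and the lowest value allowed is -6.74. On the 5 arrays between 3894 and 4093 of 7000 spots were well above background and 0 were saturated. The 75th percentiles lay between 2695 and 3040 on the JM6 arrays and were 2270 and 2440 on the E33 arrays. All 5 arrays and both sham arrays shared 1 slide. JM6 replicate 1 lay in its first row, which also held the sham arrays and 1 array of another drug group, and the other 4 arrays in its second row. A miRNA was tested if, in JM6 or in E33 or in both, none of the group's arrays fell short of the scanner's limit for a signal well above background, which held for 230 of the 350 miRNAs on the array. Of these, 220 were above background on all 5 arrays, 5 on every JM6 array and not every E33 array, and 5 the other way round, and the levels of these 10 lay near the floor apart from miR-188.

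No miRNA passed the adjusted threshold between JM6 and E33. With limma fitted over all 16 arrays, 0 of 230 miRNAs (0%) were higher and 0 (0%) lower in JM6 at an adjusted p under 0.05, and the smallest adjusted p was 1. At an unadjusted p under 0.05 limma gave 1 higher miRNA (0.435%), miR-338*, and 3 lower (1.3%), miR-192, miR-194 and miR-330*. Which miRNAs these were depended on the fit, since miR-338* and miR-330* no longer had such a p with no slide term, and miR-338*, miR-192 and miR-194 did not when the fit was limited to the JM6 and E33 arrays. The methods' t-test (p under 0.05 before adjustment, with more than 1.2-fold between the means) gave 1 miRNA higher in JM6 (0.435%), miR-34b, and 0 lower (0%), and 0 after Benjamini-Hochberg adjustment. With 3 arrays against 2, an exact two-sided permutation test of a single miRNA cannot go below p = 0.2, so it cannot pass the threshold here.

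The differences were small in size. The median difference over the 230 miRNAs was -0.0034, the median absolute difference was 0.0745 and the largest was 0.66. The mean was higher in JM6 for 110 miRNAs, lower for 119 and equal for 1. The difference exceeded 1.2-fold for 22 miRNAs, 1.5-fold for 2, which were miR-192 and miR-194, and 2-fold for 0. The median SD within JM6 (n = 3) was 0.126 and within E33 (n = 2) 0.0738, so the median absolute difference between the group means was below the median SD within JM6 and about equal to that within E33.

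**Figure D1:**
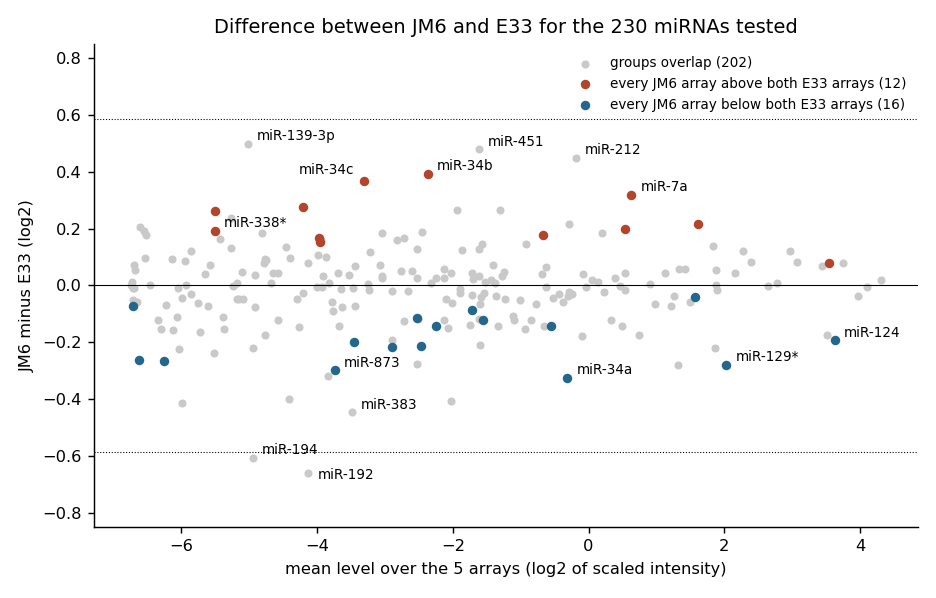
Each point is 1 of the 230 miRNAs tested, with its mean level over the 5 arrays on the x axis (log2 of scaled intensity) and the JM6 minus E33 difference on the y axis (log2). The dotted lines mark 1.5-fold, which only miR-192 and miR-194 pass, and colours mark the 12 miRNAs whose JM6 arrays all lay above and the 16 whose JM6 arrays all lay below both E33 arrays.

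The 95% intervals describe how far the fit over all 16 arrays bounds a difference between the 2 groups. The interval lay within 1.2-fold either way for 37 miRNAs, within 1.5-fold for 172 (74.8%) and within 2-fold for 211 (91.7%). For the remaining 19 a 2-fold difference lay inside the interval or at its edge. These were miR-34a, miR-34b, miR-34c, miR-133b, miR-135b, miR-139-3p, miR-139-5p, miR-142-3p, miR-143, miR-144, miR-152, miR-188, miR-192, miR-194, miR-199a-3p, miR-204, miR-212, miR-223 and miR-451. The widest interval was that of miR-223, from -1.80 to 2.09, and that of miR-204 ran from -1.80 to 1.88. The standard error of each miRNA was taken from all 16 arrays, among them the sham arrays. An interval can therefore be wider or narrower than the JM6 and E33 arrays alone would give. For miR-204 the SD was 0.18 in JM6, 0.04 in E33 and 1.77 in sham. For miR-135a, counted within 2-fold, it was 0.48 in JM6, 0.02 in E33 and 0.16 in sham.

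**Figure D2:**
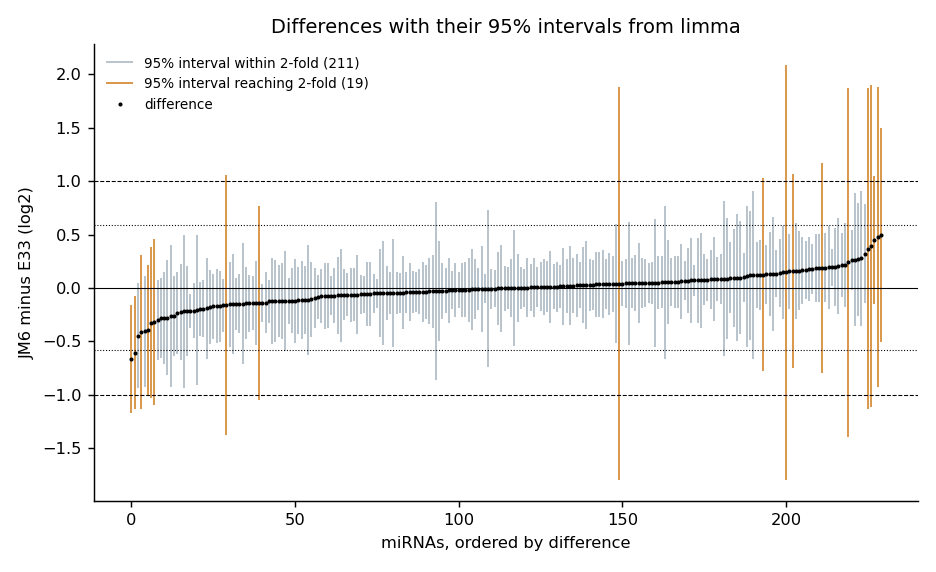
The 230 miRNAs are ordered by their JM6 minus E33 difference (black points, log2 on the y axis), with vertical lines for the 95% intervals from limma. Dotted lines mark 1.5-fold and dashed lines 2-fold, and the 19 miRNAs in orange have intervals that reach 2-fold.

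Although none passed the test, some miRNAs separated the groups without overlap. Every JM6 array lay above both E33 arrays for 12 miRNAs (5.22%) and below both for 16 (6.96%), 28 of 230 in all (12.2%). Arrays labelled at random would separate in this way for a share of about 0.2 of miRNAs, the smallest possible exact permutation p. The 28 were thus no more than random labels would give, and the separations below are descriptions only. The count of 28 depended on the background correction and the scaling. It was 14 higher and 13 lower with quantile normalization, 9 and 7 with normexp background correction, 10 and 53 with normexp after spots of bright local background were left out, and 140 and 0 with no scaling. With fewer arrays to separate it was larger, from 48 without JM6 replicate 3 to 92 without JM6 replicate 2. Random labels also separate a larger share when fewer arrays are compared, so these counts cannot be set beside 0.2. Without scaling the median of all miRNAs moved to 0.26, and with normexp to 0.20, so differences below are given after scaling and relative to a median near 0.

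The miR-34 family had differences of opposite sign by locus, each about as large as its standard error or smaller. miR-34a, a direct target of p53 that restrains growth, stood at -0.47, -0.32 and -0.53 on the JM6 arrays and at -0.23 and -0.0014 on the E33 arrays. JM6 was thus below E33 on every array, with a log2 difference of -0.32 ± 0.32 (SE), and the sham arrays, at -0.61 and -0.27, enclosed the JM6 range. miR-34b, made with miR-34c from 1 transcript and abundant in ciliated epithelium such as the ependyma, stood at -2.12, -2.29 and -2.22 in JM6 and at -2.74 and -2.47 in E33. miR-34c stood at -3.04, -3.29 and -3.17 in JM6 and at -3.68 and -3.39 in E33. Both were therefore above E33 on every JM6 array, miR-34b by 0.39 ± 0.69 and miR-34c by 0.37 ± 0.69 (SE). The sham arrays were far apart for this pair, at -0.04 and -1.38 for miR-34b and -1.06 and -2.40 for miR-34c, above all 5 drug arrays. The 3 signs stayed under every alternative tried, and limma's adjusted p was 1 for each member.

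The let-7 family, whose maturation is blocked by Lin28 in stem cells and which is abundant in adult brain, differed little. Of its 8 tested members 7 had a higher mean and 1 a lower mean in JM6, with a median of 0.06 beside -0.0034 over all miRNAs, and every member's interval lay within 1.5-fold. miR-98, a let-7 member on the X chromosome, stood at -0.58, -0.59 and -0.62 in JM6 and -0.70 and -0.85 in E33, a difference of 0.18 ± 0.11 (SE). let-7a stood at 3.63, 3.51 and 3.57 in JM6 and 3.50 and 3.49 in E33, so that the groups were 0.0113 apart at their closest. let-7e went the other way, at 1.52, 1.58 and 1.58 against 1.59 and 1.61, but its other probe gave a difference of 0.02 and without scaling the sign turned to 0.24.

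miR-7a, which is rich in neurosecretory cells and binds the circular RNA Cdr1as, stood at 0.57, 1.04 and 0.67 in JM6 and 0.53 and 0.35 in E33. JM6 replicate 2 was the highest, and the difference was 0.32 ± 0.21 (SE). miR-7b, with the same seed, had a mean difference of 0.27 ± 0.24, but its JM6 arrays, at -2.11, -1.60 and -1.79, overlapped E33, at -2.16 and -2.04. Both signs stayed under every alternative.

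Among the neuron-enriched miRNAs the direction was mixed. miR-124, which holds neuronal identity by repressing the splicing regulator Ptbp1, stood at 3.61, 3.56 and 3.50 in JM6 and 3.72 and 3.78 in E33, below E33 on every JM6 array with a difference of -0.19 ± 0.12 (SE). miR-137, a regulator of synaptic genes, stood at 0.68, 0.59 and 0.57 against 0.53 and 0.30, and miR-218, a miRNA of neurons and above all of motor neurons, at 1.79, 1.64 and 1.65 against 1.57 and 1.39. These last were above E33 on every JM6 array, by 0.20 ± 0.17 and 0.21 ± 0.14. The sham arrays, at 3.38 and 3.66 for miR-124, 0.47 and 0.71 for miR-137, and 1.61 and 1.83 for miR-218, overlapped the JM6 arrays in each case. Of the 12 neuron-enriched miRNAs, all tested, 7 had a higher and 5 a lower mean in JM6, the median was 0.07, and 10 had intervals within 1.5-fold. The sign for miR-124 turned to 0.09 with no scaling.

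The remaining miRNAs that lay higher on every JM6 array were dim. miR-338*, the passenger arm of the oligodendrocyte miRNA miR-338, stood at -5.53, -5.31 and -5.47 in JM6 and -5.58 and -5.67 in E33, a difference of 0.19 ± 0.08 (SE, unadjusted p = 0.0298 by limma). Its exact permutation p was 0.2, its other measured probe gave -0.14, and the sham arrays lay higher still, at -5.19 and -5.27. miR-325-5p stood at -5.33, -5.45 and -5.41 against -5.58 and -5.74, a difference of 0.26 ± 0.13. The differences of the others were 0.28 for miR-333_v11.0, 0.17 for miR-99a* and 0.15 for miR-22*, each with levels between -4.45 and -3.82 on the 5 arrays.

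The miRNAs that lay lower on every JM6 array included both arms of the miR-140 hairpin, which sits in the gene Wwp2 and is best known in cartilage. miR-140* stood at -2.57, -2.49 and -2.61 in JM6 and -2.34 and -2.35 in E33, and the closest arrays of the groups were 0.141 apart. miR-140 stood at -2.30, -2.23 and -2.39 against -2.16 and -2.17. The differences were -0.21 ± 0.12 and -0.14 ± 0.12 (SE), and with no scaling they were 0.07 and 0.14.

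miR-330* had the smallest unadjusted p of the comparison (0.0109 by limma). It stood at -2.98, -3.05 and -2.92 in JM6 and -2.73 and -2.81 in E33, with the sham arrays between the groups at -2.89 and -2.85. The difference was -0.22 ± 0.07 (SE), its exact permutation p was 0.2, and it turned to 0.06 with no scaling and 0.05 with normexp. miR-129*, a neuronal miRNA, stood at 1.72, 2.17 and 1.87 in JM6 and 2.20 and 2.19 in E33, so that JM6 replicate 2 was only 0.0260 below E33 while the others were further off. miR-33, which lies in an intron of Srebf2 and lowers the cholesterol exporter Abca1, stood at -3.39, -3.54 and -3.67 against -3.29 and -3.37. The differences were -0.28 ± 0.20 for miR-129* and -0.20 ± 0.12 for miR-33.

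Of the others below E33 on every JM6 array, miR-873 stood at -3.98, -3.83 and -3.77 in JM6 and -3.38 and -3.74 in E33, a difference of -0.30 ± 0.17 (SE). miR-329, of the imprinted Dlk1-Dio3 cluster, differed by -0.14, miR-652 by -0.12 and miR-324-3p by -0.09. From 1 hairpin, miR-322, a relative of miR-15 and miR-16 by its seed, differed by -0.11 and its star arm miR-322* by -0.26. For miR-30c-1* and miR-760-3p all 3 JM6 arrays were at the floor, so their differences of -0.26 and -0.07 are set by it. miR-30c-1* also entered the test only through E33, the group where it was higher. With all 5 arrays required to be above background, 15 miRNAs lay below E33 in place of 16. All miRNAs of this paragraph but miR-873, miR-30c-1* and miR-760-3p changed sign with no scaling.

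**Figure D3:**
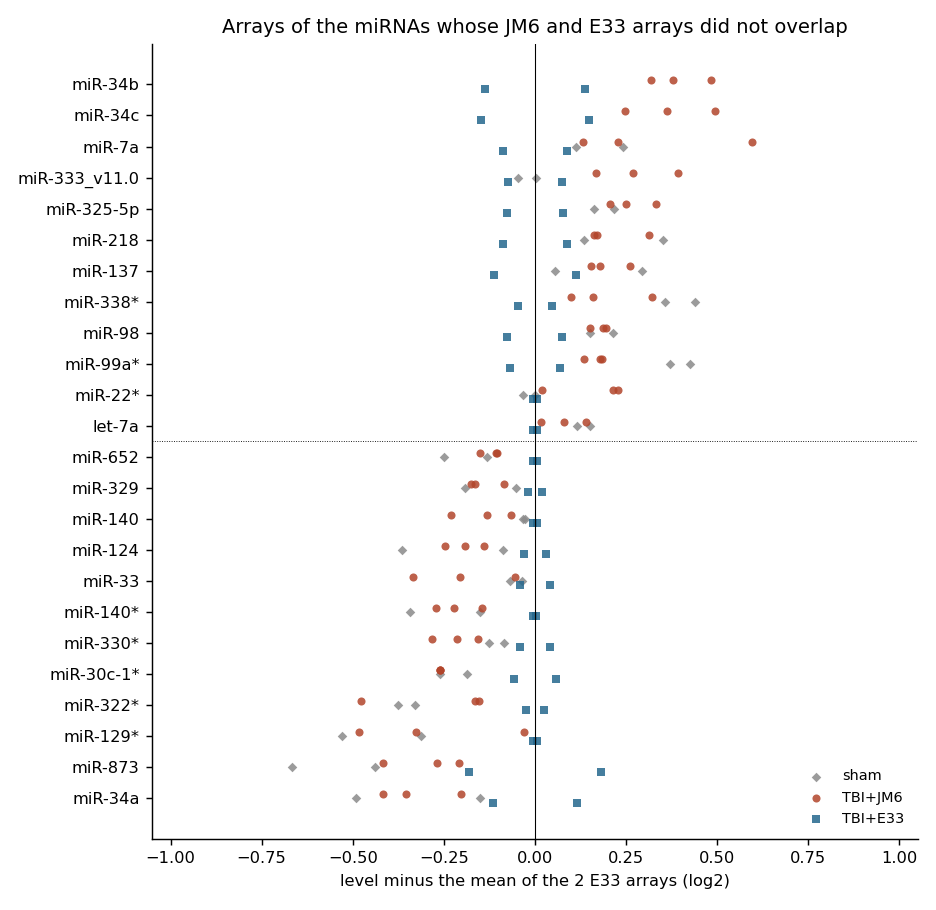
For the 12 miRNAs with the largest difference in each direction among those without overlap, every array is drawn as its level minus the mean of the 2 E33 arrays (x axis, log2), with circles for JM6, squares for E33 and diamonds for sham. The JM6 circles lie to the right of both squares in the upper 12 rows and to the left in the lower 12, while the sham diamonds of miR-34b and miR-34c fall beyond the right edge.

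The 2 miRNAs with the largest differences did not separate the groups, since 1 JM6 array stood at the E33 level for both. miR-192, a miRNA of liver, gut and kidney, stood at -4.66, -3.75 and -4.77 on the JM6 arrays, at -3.69 and -3.77 on the E33 arrays and at -4.12 and -4.09 on the sham arrays. JM6 replicates 1 and 3 lay below every E33 and sham array and replicate 2 lay between the E33 arrays. The difference was -0.66 ± 0.23 (SE, 95% interval -1.17 to -0.16), with an unadjusted p of 0.0148 by limma and an exact permutation p of 0.4. miR-194, its neighbour, stood at -5.29, -4.58 and -5.71 in JM6, -4.60 and -4.57 in E33 and -5.12 and -4.97 in sham, a difference of -0.61 ± 0.24 (SE, unadjusted p = 0.0281 by limma). Replicate 2 was again at the E33 level. With normexp correction, which raised the base level of JM6 replicate 1, the differences were 0.03 and 0.21, and they were -0.50 and -0.42 once the bright background spots of that array were left out.

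Neither was called with all arrays, and JM6 replicate 2 went against both differences. Without it they were -0.98 for miR-192 (adjusted p = 0.00030 by limma) and -0.91 for miR-194 (adjusted p = 0.016 by limma), and 2 miRNAs then passed the threshold. Dropping the array that went against both differences also cut the standard error of miR-192 from 0.23 to 0.092. These p-values are therefore no support for either difference. Without JM6 replicate 1, which leaves only arrays of the slide's second row, the 1 miRNA that passed was miR-878, which then entered the test only through JM6, the group where it was high, so no p is given for it. It was not tested with all arrays, and it stood at the floor on JM6 replicate 1 and on both E33 arrays and at -6.13 and -6.02 on the other JM6 arrays.

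The same replicate stood apart for other miRNAs, which were picked out after their values had been seen. JM6 replicate 2 lay at least 0.5 above both other JM6 arrays for 11 of the 230 miRNAs, which were miR-133b, miR-135a, miR-135b, miR-139-5p, miR-144, miR-192, miR-194, miR-335, miR-376b-5p, miR-383 and miR-451, and at least 0.5 below them for 1, miR-124*. By the same rule replicate 1 was above the others for 1 and below for 4, and replicate 3 above for 2 and below for 3. Over all miRNAs replicate 2 had the smallest median absolute difference from the E33 arrays, 0.102 and 0.113, against 0.134 to 0.150 for the other JM6 arrays. By correlation, however, replicate 1 was nearer to them, at 0.996006 and 0.996652, against 0.995987 and 0.996239 for replicate 2. Between JM6 arrays the median absolute difference was 0.117 to 0.171, and between the E33 arrays 0.104.

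miR-335, encoded in an intron of the imprinted gene Mest, stood at -2.43, -1.72 and -2.44 in JM6 and -1.79 and -1.79 in E33. miR-383 stood at -3.79, -3.20 and -4.01 against -3.28 and -3.16. Their differences over all arrays were -0.41 ± 0.24 and -0.45 ± 0.23 (SE). miR-139-5p, from an intron of Pde2a, showed the largest gap of this replicate, at -3.26, -1.71 and -3.32 in JM6 against -2.86 and -2.98 in E33, and its mean difference of 0.16 became -0.37 without that array. The opposite arm, miR-139-3p, had another order, at -5.97, -4.53 and -3.97 in JM6 and -5.21 and -5.44 in E33, and had the largest SD within JM6 (1.03).

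**Figure D4:**
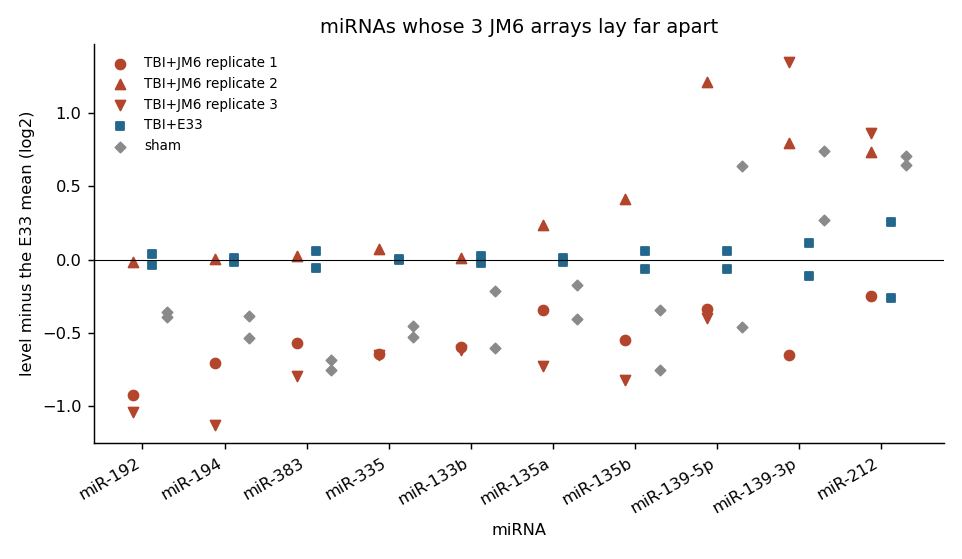
For 10 miRNAs whose JM6 arrays lay far apart, each array is drawn as its level minus the mean of the E33 arrays (y axis, log2), with a separate symbol for each JM6 replicate. JM6 replicate 2 lies between the E33 squares for miR-192, miR-194, miR-383 and miR-133b and above them for miR-335, miR-135a, miR-135b and miR-139-5p, while replicates 1 and 3 lie below them for all 8. The order differs for miR-139-3p and miR-212.

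Lists of miRNAs by cell type, cluster and family were read by their counts and medians, beside -0.0034 over all miRNAs, and 0 members of any list passed limma's adjusted p. The oligodendrocyte list had a median of -0.18, with 3 of 4 members lower in JM6 by their mean. The 1 member with a higher mean was miR-338*, at 0.19 ± 0.08 (SE), and it alone of the list separated the groups. miR-219-5p, which drives oligodendrocyte differentiation, stood at 1.63, 1.01 and 0.97 in JM6 and 1.45 and 1.52 in E33, and miR-338, its partner in that role, at 2.18, 1.70 and 1.47 against 1.99 and 2.01. JM6 replicate 1 was the highest of the 5 arrays and the other JM6 arrays were the lowest in both cases, so the groups overlapped. The differences were -0.28 ± 0.17 and -0.22 ± 0.19 (SE), and that of miR-338 was 0.06 with no scaling. The summed scaled signal of the list ran from 5.11 to 8.13 in JM6, from 7.15 to 7.35 in E33 and from 7.81 to 7.98 in sham. In bulk tissue fewer cells of a type and less RNA per cell cannot be told apart.

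The leukocyte miRNAs were as variable within a group as between groups. miR-223, the miRNA of granulocytes and monocytes, stood at -1.34, -1.13 and -2.05 in JM6 and -1.98 and -1.32 in E33, and at -5.38 and -4.92 in sham. miR-142-3p, found in all blood cell lineages, stood at -1.67, -1.58 and -2.18 in JM6, -2.05 and -1.82 in E33 and -3.35 and -3.06 in sham. All 5 drug arrays were thus above both sham arrays, while the differences between JM6 and E33 were 0.15 ± 0.89 and 0.12 ± 0.41 (SE). The other members were miR-142-5p, at 0.12 ± 0.36, and the lymphocyte miRNA miR-150 and miR-342-3p, whose means were lower in JM6, with differences of -0.15 ± 0.11 and -0.05 ± 0.08 (SE). The list thus had 3 members with a higher and 2 with a lower mean in JM6 and a median of 0.12, with a summed scaled signal of 1.45 to 1.83 in JM6, 1.63 to 1.70 in E33 and 1.02 to 1.18 in sham.

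Red cell miRNAs followed single arrays. miR-451, which is processed by Ago2 without Dicer, stood at -1.74, -0.97 and -1.56 in JM6, -2.33 and -1.48 in E33 and -1.30 and -2.45 in sham, and miR-144, from the same cluster, at -5.32, -4.71 and -5.49, -5.79 and -5.04, and -5.15 and -6.34. The differences were 0.48 ± 0.64 and 0.24 ± 0.75 (SE), and the median of the 2 tested members was 0.36. The summed signal of the list was 0.324 to 0.547 in JM6, 0.218 to 0.389 in E33 and 0.195 to 0.433 in sham. JM6 replicate 2, which stood apart for miR-192 and miR-194, had the highest level of both, and the part of blood in those values was not tested.

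For choroid plexus and ependyma, and for organs outside the brain, few markers were tested. Of 14 choroid plexus and ependyma miRNAs 3 were tested, miR-34b, miR-34c and miR-204, with a median of 0.37, and the 11 others, among them miR-211, miR-200a and miR-449a, were not above background on all arrays of either group. miR-204, the main miRNA of the choroid plexus, stood at -0.55, -0.88 and -0.59 in JM6 and -0.74 and -0.69 in E33, a difference of 0.04 ± 0.84 (SE), while sham replicate 1 stood at 2.17 and sham replicate 2 at -0.34. The summed signal was 0.851 to 1.03 in JM6, 0.827 to 0.897 in E33 and 1.36 to 5.95 in sham. Of 9 muscle, liver and gut miRNAs 3 were tested, miR-133b, miR-192 and miR-194, all with a lower mean in JM6 (median -0.61), and miR-122, miR-1, miR-133a, miR-206, miR-208 and miR-215 were not. The list's signal was 0.0918 to 0.172 in JM6, 0.172 to 0.173 in E33 and 0.123 to 0.139 in sham.

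Of the remaining lists, the 6 inflammation-responsive miRNAs had a median of 0.13, with 5 higher and 1 lower mean in JM6. miR-21, the best known of them in injured tissue, stood at 1.95, 1.87 and 1.86 in JM6 and 1.76 and 1.91 in E33, against 0.44 and 0.55 in sham, a difference between the drugs of 0.05 ± 0.33 (SE). The 4 p53 and hypoxia miRNAs, which are the 3 miR-34 members above and the hypoxia-induced miR-210, had a median of 0.22, and miR-210 differed by 0.08 ± 0.18. Of the activity-regulated miRNAs, miR-132 and miR-212 come from 1 CREB-driven transcript and share a seed. miR-212 stood at -0.71, 0.28 and 0.41 in JM6 and -0.19 and -0.71 in E33, a difference of 0.45 ± 0.28 (SE), while miR-132 differed by 0.01 ± 0.17.

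The clusters and large families lay close to the median of all miRNAs. The medians were 0.07 for the miR-17-92 cluster (6 of 8 tested), 0.04 for its paralog clusters (4 of 7), -0.02 for the miR-15/16 family (5 of 5), -0.10 for the miR-181 family (4 of 4) and 0.04 for miR-125, miR-99 and miR-100 (5 of 5). They were 0.0040 for miR-23, miR-27 and miR-24, 0.02 for the miR-29 family, -0.04 for the miR-30 family and -0.02 for vessel miRNAs. In the imprinted Dlk1-Dio3 region, the large miRNA cluster active in neurons, the proximal part had a median of -0.03 (8 of 12 tested) and the distal part -0.01 (31 of 33). Every tested member of the miR-15/16, miR-181, let-7, miR-23/27/24, miR-29 and miR-30 lists and of the paralog clusters had an interval within 1.5-fold, as did 28 of the 31 distal Dlk1-Dio3 miRNAs.

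**Figure D5:**
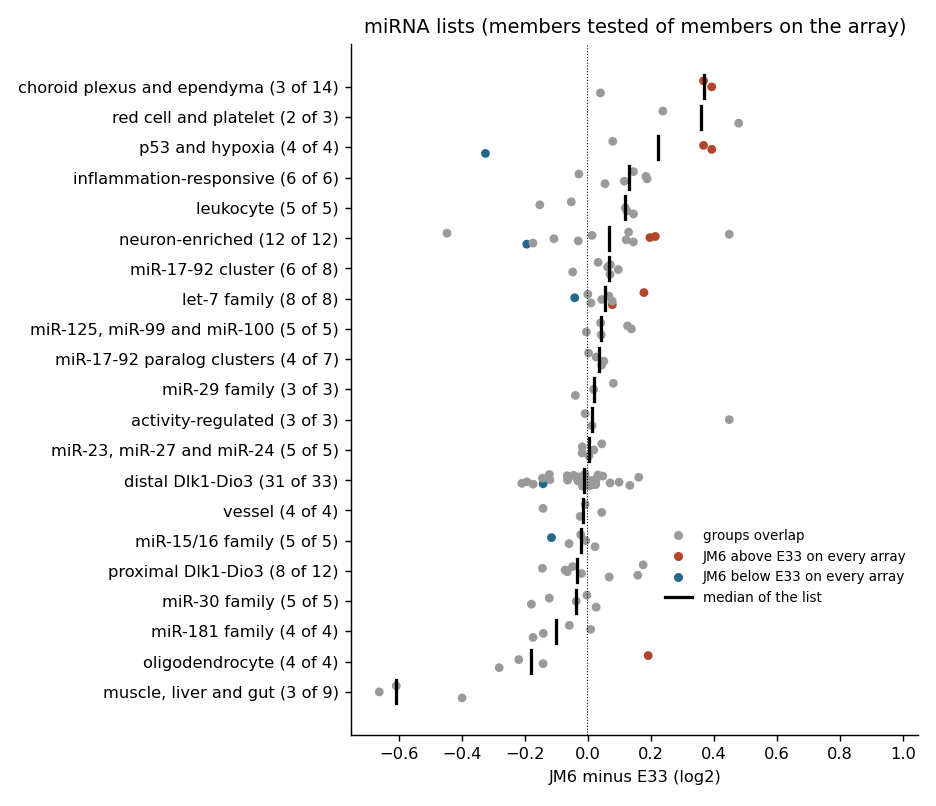
Points are the tested miRNAs of each list at their JM6 minus E33 difference (x axis, log2), bars are list medians, and the counts in brackets give members tested of members on the array. The dotted line is the median of all 230 miRNAs. Medians run from -0.61 for muscle, liver and gut (3 tested) to 0.37 for choroid plexus and ependyma (3 tested), and lists of 5 or more tested members stay between -0.04 and 0.13.

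The 10 miRNAs that the study followed after TBI, namely miR-146b, miR-379, miR-92a, miR-15b, miR-758, miR-19a, miR-365, miR-17-5p, miR-181c and miR-18a, had small differences between the drugs. Their differences ran from -0.17 ± 0.15 for miR-758 to 0.19 ± 0.15 for miR-146b (SE), 0 of 10 were without overlap, beside 12.2% of all miRNAs, and 9 of 10 had intervals within 1.5-fold, beside 74.8% of all. miR-18a, of the miR-17-92 cluster, stood at -5.01, -5.14 and -5.19 in JM6 and -4.94 and -5.19 in E33, and at -6.17 and -6.35 in sham, a difference between the drugs of -0.05 ± 0.23. miR-365 had a difference of 0.17 ± 0.14. The 6 miRNAs with the highest signal, miR-29b, miR-125b-5p, miR-29a, let-7c, miR-124 and let-7a, had differences from -0.19 to 0.08, all with intervals within 1.5-fold.

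Against sham, which both drug groups share as their reference, limma called 0 of 230 miRNAs in JM6 (0%) and 3 in E33 (1.3%), 2 of them higher (0.87%) and 1 lower (0.435%). The 3 were miR-18a, at 1.19 ± 0.25 in E33 and 1.15 ± 0.23 in JM6 (SE), miR-543*, at 0.49 ± 0.10 and 0.37 ± 0.09, and miR-338*, at -0.40 ± 0.08 and -0.21 ± 0.08. The adjusted p by limma was 0.045 for each in E33, and 0.086, 0.086 and 0.29 in JM6. The difference between the drugs was itself tested for each, with an adjusted p of 1, so a call in 1 drug group and not in the other does not show that they differ. These contrasts include the injury as well as the drug.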

How the data were processed

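Whole hippocampal RNA was hybridised in 1 colour to Agilent Rat miRNA arrays. The deposited scanner files hold an intensity per spot, background-subtracted by the authors with Agilent Feature Extraction 9.5.3.1 and not scaled between arrays, and flags for spots well above background. In a second, processed table deposited by the authors the intensities, for 95.3% to 98.1% of values of at least 1, were within 1% of 1 constant per array times the scanner's total probe signal. It was used as an alternative only.

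Outlier spots were left out and replicate spots averaged. The 284 probes detected on each of the 16 arrays gave a 75th percentile by which the array was scaled. Lower values were set to a floor of -6.74 (log2), and from 938 probes 1 was kept per miRNA. Of the 181 tested miRNAs with several probes well above background on all 5 arrays, 24 had probes whose JM6 minus E33 differences differed in sign. limma 3.58.1 in R 4.3.3 was fitted to 16 arrays with group and slide, with Benjamini-Hochberg adjustment over 230 miRNAs. Groups came from sample titles. P-values measure the spread between these arrays, and the number of arrays limits the precision. The fit was tested on simulated data. No block by replicate number was used in the main fit. Correlations between arrays of the same number (-0.22 and 0.10) cannot settle pairing, since the deviations of 2 E33 arrays from their mean mirror each other.

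A rule gave the miRNAs to name as the 12 largest differences in each direction without overlap, the brightest of each list, the study's 10 and the tissue markers. Not all that it covers are described above, and miR-126, miR-128 and miR-138 are among those left out. Others, among them miR-335, miR-383, miR-139-3p and miR-139-5p, were named after their values were seen. Alternatives were run for 56 of the miRNAs named, and for others, such as list members given by name or range only, none is listed. The comparison, members and lists were chosen with earlier results of these data known.

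Alternatives were normexp (offset 50), other scalings, probe rules, filters and fits, a replicate block, and leaving out each array. Normexp without spots whose local background exceeded 5 times the array's median was added after seeing the data, since 7 such spots on JM6 replicate 1 raised its base level to 576, against 62.1 to 65.1 on the other 4 arrays. Python 3.11.15 and scipy 1.17.1 were used.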

Additional observations from a re-analysis of the deposited data

How the results depend on the processing

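No miRNA passed limma's adjusted threshold under any alternative that kept all 5 arrays, and leaving out 1 array gave 0 to 2. The miRNAs without overlap, 28 with all arrays, numbered 16 with normexp, 63 with normexp without bright background spots, 140 with no scaling, 16 of the 201 miRNAs that could be tested in the authors' processed table, and 48 to 92 with 1 array fewer. The methods' t-test, with 1 miRNA in the main setting, gave 32 with no scaling, 2 with summed signals, 0 after quantile normalization, 0 when the percentile was taken over every probe, and 0 to 14 without 1 JM6 array (it cannot be run with 1 E33 array, and the lone E33 array is assumed in limma to vary like the other groups). The median difference was 0.26 with no scaling, 0.20 with normexp and between -0.03 and 0.02 without 1 array. With the replicate number as a block limma called 0 miRNAs, no call at the adjusted threshold changed and the median was -0.01. The unadjusted p under 0.05, held by 1 higher and 3 lower miRNAs, then went to 0 and 2, as it did with no slide term.

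Of 56 named miRNAs, 21 kept the sign of their difference under each of the 20 alternatives that could be run for them (the authors' table covered 47 of the 56 and the stricter filter 55). With no scaling the difference turned to 0.24 (let-7e), 0.085 (miR-124), 0.14 (miR-140), 0.066 (miR-140*), 0.16 (miR-322), 0.014 (miR-322*), 0.19 (miR-324-3p), 0.14 (miR-329), 0.080 (miR-33), 0.061 (miR-330*), 0.16 (miR-652), 0.060 (miR-338), 0.23 (miR-18a), 0.11 (miR-758), 0.0013 (miR-135a), 0.13 (miR-150), 0.23 (miR-342-3p) and 0.15 (miR-543*). With normexp it turned to 0.027 (miR-140), 0.54 (miR-30c-1*), 0.091 (miR-322), 0.52 (miR-322*), 0.024 (miR-324-3p), 0.12 (miR-33), 0.048 (miR-330*), 0.56 (miR-760-3p), 0.16 (miR-873), 0.033 (miR-192), 0.21 (miR-194), 0.24 (miR-133b), 0.46 (miR-18a), 0.43 (miR-758), 0.020 (miR-383), 0.19 (miR-135b), 0.0038 (miR-342-3p) and 0.11 (miR-543*). Without bright background spots it turned to -0.012 (miR-325-5p), -0.054 (miR-338*), -0.014 (miR-210) and -0.0041 (miR-144), with the replicate block to -0.032 (miR-132), and with summed signals to 0.14 (miR-760-3p) and 0.023 (miR-18a). When an array was left out the ranges that crossed 0 were -0.14 to 0.61 for miR-144, -0.19 to 0.48 for miR-223, -0.021 to 0.14 for miR-204, -0.17 to 0.076 for miR-18a, -0.38 to 0.032 for miR-758, -0.021 to 0.13 for miR-21, -0.15 to 0.10 for miR-132, -0.14 to 0.034 for miR-342-3p, -0.0083 to 0.14 for miR-210 and -0.37 to 0.44 for miR-139-5p. The cause was not tested. With 2 E33 arrays, and with levels near the floor for the dimmest miRNAs, differences of the size seen here lie within the intervals of most miRNAs.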
